A study of Mus musculus with 11 samples.

Results

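The genes described here encode the proteasome: the subunits of its core and caps, its activators and inhibitor, and its assembly chaperones. They were taken as every symbol of the array's gene table that starts with Psma, Psmb, Psmc, Psmd, Psme, Psmf or Psmg, leaving out the interferon-induced catalytic subunits Psmb8 and Psmb9. The rule found 49 symbols, and 47 of them had a value among the 18193 genes measured. Psme2 and Psme2b, a subunit of an activator and its close copy, share a probe set that carries both symbols and therefore have no value here. Each gene was read from its brightest single-symbol probe set, that is, the one with the highest mean over all arrays. Psmc3ip and Psme3ip1 entered by symbol: Psmc3ip is a recombination factor of meiosis, and Psme3ip1 binds the activator subunit encoded by Psme3.

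The proteasome is the protease that degrades proteins tagged with ubiquitin. Its barrel-shaped 20S core is built from outer alpha rings, which gate the entrance, and inner beta rings, which hold the catalytic sites. A 19S cap recognises the ubiquitin tag, removes it and unfolds the substrate with a ring of ATPases, while other activators open the core without ubiquitin. In T cells the proteasome also removes inhibitors of NF-kappaB and of the cell cycle, and in all nucleated cells it supplies peptides for MHC class I.

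RNA was measured on 11 Affymetrix arrays, 1 per sample, from CD4+ T cells of mouse spleen and lymph node. All mice were aged 6 to 8 weeks, and all cells were positively selected on CD4 and sorted on GFP, with repeat sorting. TN arrays (n = 3) are labelled as naïve and Foxp3-negative, Foxp3 being the lineage factor of regulatory T cells, and Treg arrays (n = 5) as Foxp3-positive cells. GFPKO arrays (n = 3) are labelled as GFP+ cells of Foxp3GFPKO/WT mice, which carry 1 wild-type Foxp3 allele and 1 allele in which GFP replaces a working Foxp3. The labels name no strain or genotype for the TN and Treg mice, and they do not say how many mice gave each sample or that samples of a group came from separate mice. The p-values below thus speak only to the spread among these samples, and that spread may be technical. Where 3 differences of a gene follow each other, they are Treg minus TN, then GFPKO minus TN, then Treg minus GFPKO. Values are on the log2 scale, on which a difference of 1 is a doubling of signal.

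The Foxp3 probe set averaged 3.48 on TN arrays, 3.47 on the arrays labelled Treg and 6.93 on GFPKO arrays, against a background level of 3.88. That background is the 95th percentile of 39 olfactory receptor genes, which T cells are not known to express. This Foxp3 probe set thus goes against the Treg label. No other marker of regulatory T cells was listed here, so every direction below for the arrays labelled Treg rests on that label alone. Xist, expressed from the inactive X chromosome of females, averaged 11.34 on GFPKO arrays and 3.78 and 3.67 on TN and Treg arrays, so sex and genotype cannot be told apart. The 6 CD4 T cell markers measured averaged 10.90 to 11.22 on every array. Marker calls are at an adjusted p under 0.05 in limma, and the shares of all genes called are given below. Of the 6, 1 was called lower on Treg than on TN arrays and 1 lower on Treg than on GFPKO arrays. Cd28 had the lowest differences there, -0.63 and -0.73. Of 18 myeloid and dendritic markers, 11 were called lower and 1 called higher on arrays labelled Treg than on TN arrays. On GFPKO arrays 11 were called lower than on TN arrays. The mean of the 18 lay between 5.53 and 6.07 on TN, 4.42 and 4.66 on Treg and 4.02 and 4.25 on GFPKO arrays. Cd14, Itgam, S100a8 and S100a9 were at or under background on every array. H2-Aa had the lowest difference from TN, averaging 10.56 on TN, 6.19 on Treg and 5.34 on GFPKO arrays. Lyz2 had the highest, averaging 5.58, 7.02 and 6.57. The 6 CD8 T cell and NK cell markers averaged 6.11 to 6.43 on TN, 4.46 to 4.82 on Treg and 4.39 to 4.69 on GFPKO arrays, with Ncr1 at or under background throughout. Of these 6, 3 were called lower on Treg and 4 on GFPKO than on TN arrays. In Treg minus GFPKO 1 was called lower. Klrd1 had the lowest difference from TN, averaging 8.83 on TN, 3.15 on Treg and 3.96 on GFPKO arrays. Cd8a had the highest, averaging 4.83, 5.17 and 4.90. Of 10 B cell markers, 1 was called higher (Cd79b, by 3.27) and 3 called lower on Treg than on TN arrays. On GFPKO arrays 1 was called higher and 4 lower than on TN arrays, and in Treg minus GFPKO 3 were called higher. The mean of the 10 lay between 4.67 and 4.79 on TN, 4.75 and 4.91 on Treg and 4.28 and 4.61 on GFPKO arrays. Fcrla, Ebf1 and Cr2 were at or under background throughout. The part of these other cells in the results below was not tested.

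Nearly all of the machinery was expressed in each group. On average 45 of the 47 genes stood above background, and Psma8 and Psmb11 stood at or under it in all 3 groups. Psma8, the testis form of an alpha subunit, averaged 2.67 on TN, 2.63 on Treg and 2.55 on GFPKO arrays. Psmb11, the beta subunit of cortical thymic epithelium, averaged 3.18, 3.30 and 3.29. These tissue-restricted subunits were not detected above background in these cells.

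The arrays labelled Treg differed little from TN arrays in proteasome genes. None of the 47 genes passed an adjusted p of 0.05 in limma, in a comparison in which 9.97% of all genes did (6.54% higher and 3.42% lower), and none had an unadjusted p under 0.05, against 19.9% of all genes. The median log2 difference over the 47 genes was 0.08, beside 0.03 over all genes tested. Differences ran from -0.32 for Psme4, an activator of the core, to 0.31 for Psmg3, an assembly chaperone. Of the 47 differences 36 lay above 0 and 11 below, where 55.8% of all genes lay above 0. The 95% interval of the difference, not adjusted for the number of genes, stayed within 2-fold in either direction for 47 of 47 genes and within 1.5-fold for 40. The shares for all genes were 91.0% and 68.8%. On bulk arrays fewer cells of a type and less RNA per cell cannot be told apart. The same comparison called 15 of 21 cell cycle genes higher on arrays labelled Treg, with a median log2 difference of 0.87. The mean of that list was 6.24 to 6.45 on TN arrays and 7.10 to 7.52 on Treg arrays.

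For 4 genes, every array labelled Treg stood above every TN array: Psma5, Psma6, Psmb2 and Psme1. That is 4 of 47, against 11.7% of all genes, and none of the 47 stood wholly below, against 7.84%. Psma6, an alpha ring subunit, read 11.67, 11.56 and 11.49 on TN arrays and 11.67, 11.68, 11.69, 11.72 and 11.73 on Treg arrays. The Treg values lay close together and began where the TN values ended. Psmb2, a beta ring subunit without catalytic activity, read 9.90, 9.90 and 9.84 on TN and 9.95, 10.09, 10.10, 10.08 and 10.27 on Treg arrays. It had the lowest adjusted p of the 47 genes in this comparison, 0.31.

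**Figure D1:**
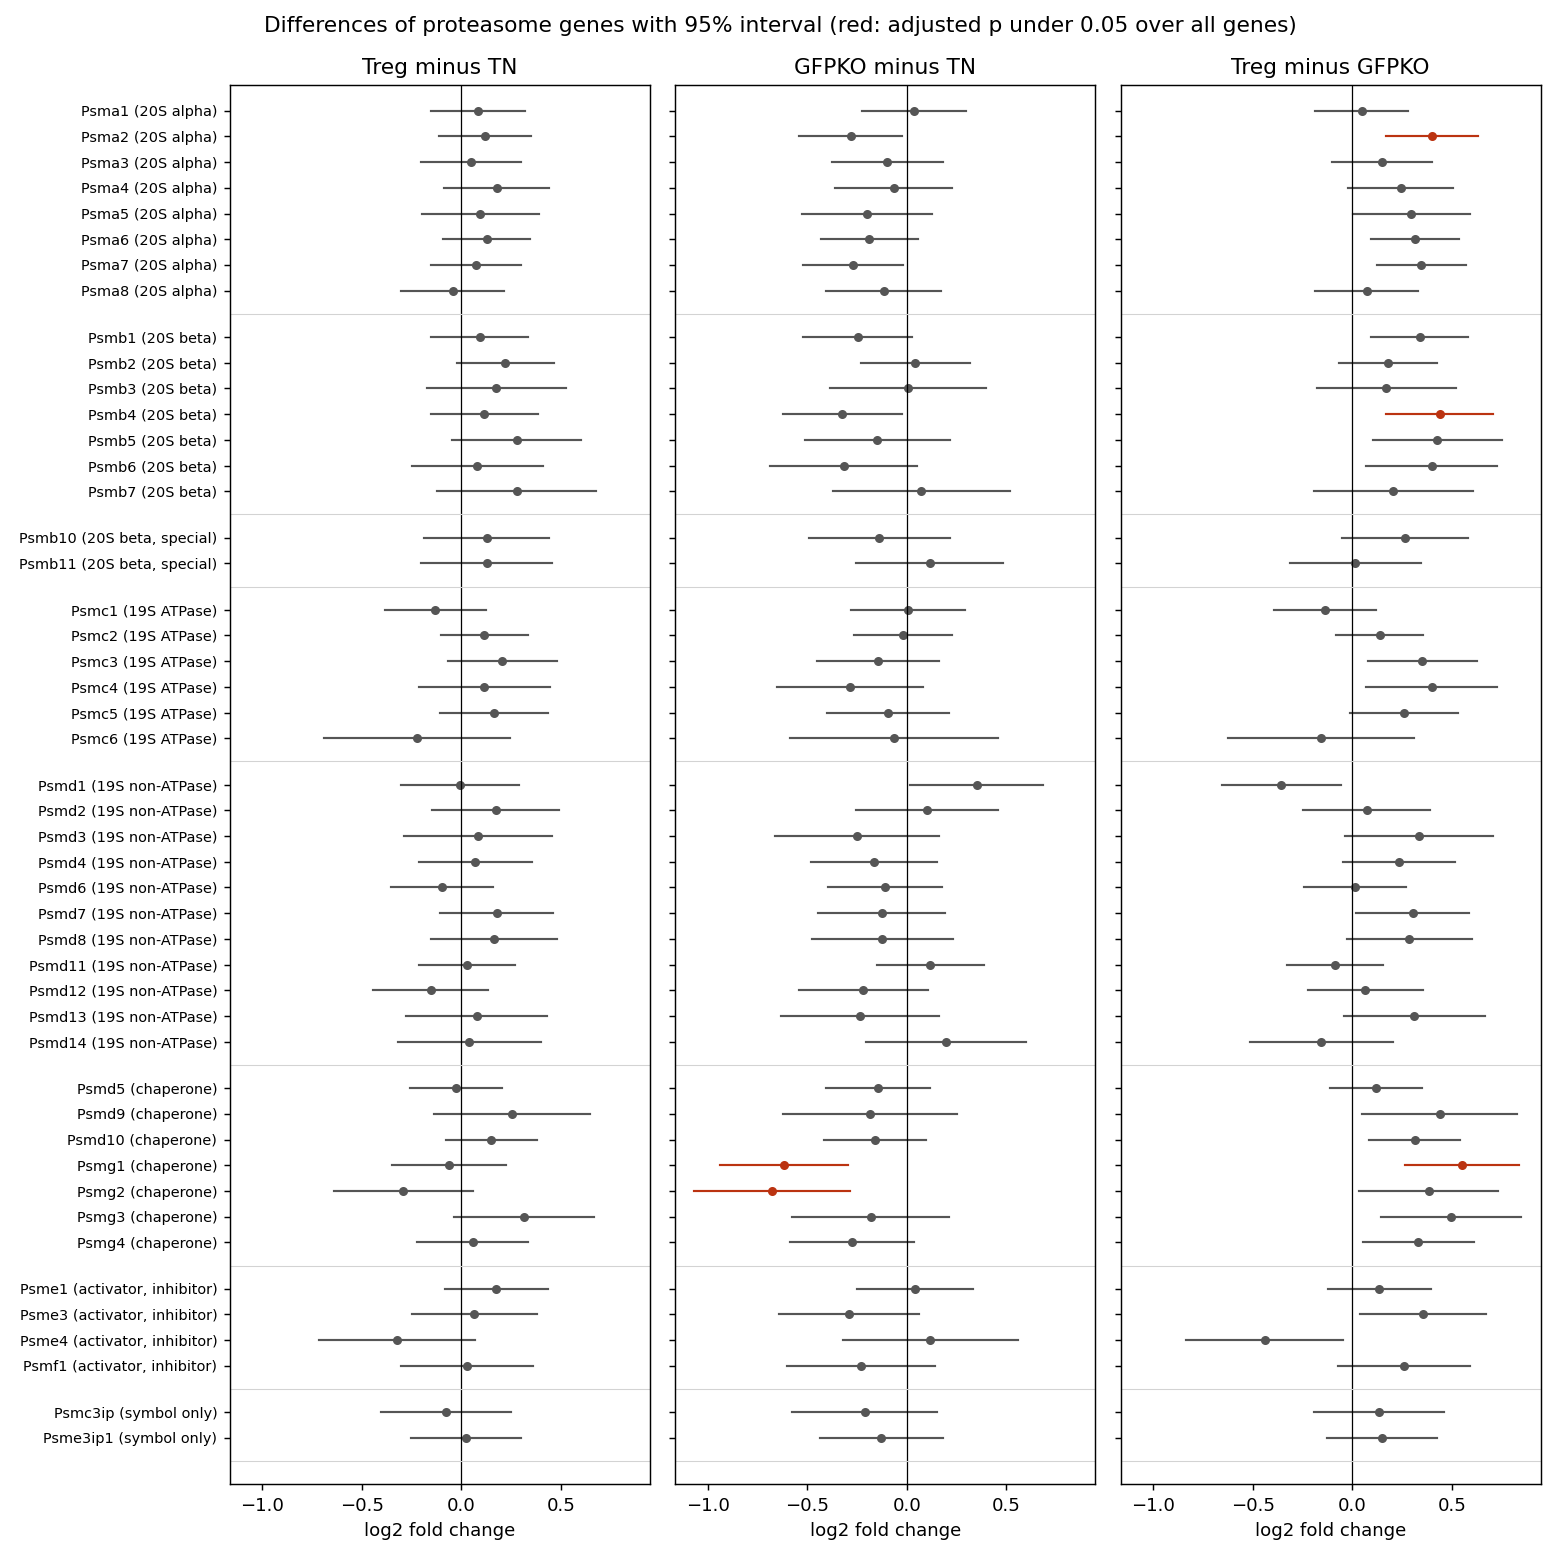
Log2 fold change of each of the 47 proteasome genes (rows, grouped by role) in the 3 comparisons (panels), with 95% intervals as lines; red marks genes with an adjusted p under 0.05 over all genes tested. No gene is red in Treg minus TN, Psmg1 and Psmg2 are red in GFPKO minus TN, and Psma2, Psmb4 and Psmg1 are red in Treg minus GFPKO.

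On GFPKO arrays 2 proteasome genes were called lower than on TN arrays and none was called higher. Those were Psmg1 and Psmg2, which encode partner chaperones that bind each other and guide assembly of the alpha ring. Over all genes 5.66% were called, 3.02% lower and 2.64% higher. The median over the 47 genes was -0.14, beside -0.04 for all genes, with 35 genes below 0 and 12 above, where 43.2% of all genes lay above 0. The range ran from -0.68 for Psmg2 to 0.35 for Psmd1, a scaffold subunit of the 19S cap. An unadjusted p under 0.05 was reached by 6 of the 47, against 16.6% of all genes. The 95% interval stayed within 2-fold for 46 genes, all but Psmg2, and within 1.5-fold for 33, where 92.8% and 61.6% of all genes did.

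Every GFPKO array stood below every TN array for 8 of the 47 genes, Psma2, Psma6, Psma7, Psmb1, Psmd10, Psmg1, Psmg2 and Psmg4, against 11% of all genes. None stood wholly above, against 7.06%. Psmd10, an assembly chaperone of the 19S base, lies on chromosome X. It read 8.55, 8.48 and 8.40 on TN and 8.34, 8.39 and 8.22 on GFPKO arrays, a difference of -0.16 ± 0.12 (SE) with an adjusted p of 0.59.

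Compared with GFPKO arrays, 3 of the 47 genes, Psma2, Psmb4 and Psmg1, were called higher on arrays labelled Treg, and none was called lower. Over all genes 9.43% were called, 6.88% higher and 2.55% lower. The median of the 47 genes was 0.26, beside 0.08 for all genes, and 41 of them lay above 0 and 6 below, where 63.7% of all genes lay above 0. Differences ran from -0.44 for Psme4 to 0.55 for Psmg1. An unadjusted p under 0.05 was reached by 20 genes, or 42.6% of the 47, against 23.2% of all genes. The 95% interval stayed within 2-fold for 47 of 47 genes and within 1.5-fold for 25, beside 92.1% and 64.8% of all genes. Every array labelled Treg stood above every GFPKO array for 9 genes, Psma2, Psma6, Psma7, Psmb1, Psmb4, Psmc2, Psmd7, Psmd10 and Psmg1, against 11.1% of all genes, and none had every Treg array below, against 3.31%. This comparison shares its GFPKO arrays with the one before, so the 2 sets of values are not independent.

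The alpha ring gates the core, and 1 of its 8 genes passed the test, in 1 comparison. The medians of the 8 log2 differences were 0.09, -0.15 and 0.27 in the 3 comparisons. Psma2 was that gene. It read 11.94, 11.73 and 11.72 on TN arrays, 11.90, 11.91, 11.98, 11.84 and 11.95 on Treg arrays, and 11.54, 11.41 and 11.60 on GFPKO arrays. All 3 GFPKO arrays were the lowest of the 11, and the TN and Treg arrays overlapped. Means were 11.80 ± 0.12 (SD, n = 3), 11.92 ± 0.05 (n = 5) and 11.52 ± 0.10 (n = 3). Treg minus GFPKO was 0.40 ± 0.11 (SE), a 1.32-fold difference, with an adjusted p of 0.031 in limma, while GFPKO minus TN was -0.28 with an adjusted p of 0.25. The Treg minus GFPKO call was lost in 10 of 20 alternative settings, including on leaving out Treg array 2, 3 or 5 (adjusted p 0.065, 0.074 and 0.063) or GFPKO array 1 or 2 (0.065 and 0.12). Others were a fit of those groups alone (0.054), the fits with arrays centred on bright genes (0.052) and with an actin covariate described below (0.22), and GFPKO array 3 as the only GFPKO array (0.36).

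Psma6 and Psma7, also of the alpha ring, also had all 3 GFPKO arrays below the other 8, without passing the test. The same order held outside the alpha ring for Psmb1 and Psmd10, not called either, and for Psmg1, described below. The share of all genes with this order was not computed. Psma7 read 10.77, 10.79 and 10.56 on TN, 10.81, 10.78, 10.80, 10.77 and 10.74 on Treg and 10.39, 10.48 and 10.44 on GFPKO arrays. Its GFPKO values lay below all others and its Treg values lay within 0.1 of each other. GFPKO minus TN was -0.27 ± 0.12 (SE) and Treg minus GFPKO 0.35 ± 0.11, with adjusted p-values of 0.25 and 0.053. A further bright Psma7 probe set, with a mean of 10.21, was called in Treg minus GFPKO in a limma fit of all probe sets (0.37, adjusted p 0.043). Psma7 was also called there with a mean of at least 5, the mean of all probe sets, a trended robust prior and array weights. Psma6 read 11.33, 11.39 and 11.43 on GFPKO arrays, all below its TN values given above. Psma5 read 9.82, 10.27 and 10.49 on GFPKO arrays, of which GFPKO array 3 stood among the arrays labelled Treg. Psma1, Psma3 and Psma4 overlapped between all pairs of groups.

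The constitutive beta ring had 7 genes, of which 1 passed the test in 1 comparison. All 7 differences lay above 0 for Treg minus TN, from 0.08 for Psmb6 to 0.28 for Psmb7, with a median of 0.18 and no call. The median was -0.15 for GFPKO minus TN, with 3 genes above 0 and 4 below, and 0.34 for Treg minus GFPKO, with 7 above 0. Over all genes 55.8%, 43.2% and 63.7% lay above 0 in the 3 comparisons. Psmb4, a non-catalytic subunit placed late in beta ring assembly, was the gene called. It read 11.64, 11.54 and 11.46 on TN, 11.55, 11.61, 11.79, 11.58 and 11.78 on Treg, and 11.04, 11.16 and 11.47 on GFPKO arrays. GFPKO arrays 1 and 2 stood below all other arrays, and GFPKO array 3 stood among the TN arrays. Treg minus GFPKO was 0.44 ± 0.13 (SE), a 1.36-fold difference, with an adjusted p of 0.040. A further Psmb4 probe set gave 0.27 with an adjusted p of 0.31 in a fit of all probe sets. The call was lost in 15 of 20 alternative settings, among them leaving out any one TN array, any one of Treg arrays 2 to 5, GFPKO array 1 or GFPKO array 2, with adjusted p-values up to 0.67 over all settings.

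The 3 constitutive catalytic genes did not pass the test in any comparison. Psmb5, the chymotrypsin-like subunit, read 10.47, 10.28 and 10.17 on TN, 10.39, 10.52, 10.69, 10.52 and 10.78 on Treg, and 9.81, 10.18 and 10.48 on GFPKO arrays. The groups overlapped, and GFPKO array 1 was the lowest of the 11. Its log2 differences were 0.28, -0.15 and 0.43, with adjusted p-values of 0.35, 0.77 and 0.10. Psmb6, the caspase-like subunit, read 10.91, 10.91 and 10.75 on TN, 10.80, 10.86, 11.01, 10.92 and 11.12 on Treg, and 10.18, 10.48 and 10.96 on GFPKO arrays. GFPKO arrays 1 and 2 were low and GFPKO array 3 stood among the others. Its differences were 0.08, -0.32 and 0.40, with adjusted p-values of 0.85, 0.40 and 0.13. Psmb7, the trypsin-like subunit, read 7.83, 8.37 and 8.46 on TN, 8.56, 8.57, 7.97, 8.66 and 8.74 on Treg, and 8.06, 8.35 and 8.47 on GFPKO arrays. TN array 1 and Treg array 3 stood low within their groups. Its differences were 0.28, 0.07 and 0.21, with adjusted p-values of 0.48, 0.93 and 0.57. The direction of GFPKO minus TN was positive for Psmb5 with the actin covariate (0.14) or without GFPKO array 1 (0.03). With array weights and without GFPKO array 3, Psmb5 and Psmb6 were called higher in Treg minus GFPKO. Psmb6 was also called lower in GFPKO minus TN in these settings. Calls over all genes rose there as well.

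Psmb10 takes the place of Psmb7 in the interferon-induced form of the core. It read 11.04, 11.02 and 10.89 on TN, 10.95, 11.04, 11.29, 11.08 and 11.19 on Treg, and 10.47, 10.89 and 11.17 on GFPKO arrays. Only GFPKO array 1 stood outside the range of the other groups. Its differences were 0.13, -0.14 and 0.26, with adjusted p-values of 0.73, 0.78 and 0.31, and without GFPKO array 1 the GFPKO minus TN difference was 0.050. In GFPKO minus TN 11 of 16 interferon-stimulated genes were at the same time called higher, against 2.64% of all genes. Of the 16, 7 were called higher and 1 lower in Treg minus TN (all genes 6.54% and 3.42%). In Treg minus GFPKO 2 were called higher and 9 lower (all genes 6.88% and 2.55%). The mean of the 16 was 7.75 to 8.00 on TN, 8.19 to 8.28 on Treg and 8.75 to 9.08 on GFPKO arrays. Psmb8 and Psmb9, the other interferon-induced catalytic subunits, had GFPKO minus TN differences of -0.07 and -0.26, and their Treg minus TN differences were 0.26 and 0.14. None of the 7 genes of a related list passed the test in any comparison. The list held Psmb8, Psmb9, genes of peptide loading for MHC class I (Tap1, Tap2, Tapbp and Erap1) and the transcription factor Irf1.

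No gene of the 19S cap passed the test in any comparison. Its 6 ATPase genes, whose ring unfolds substrates, had medians of 0.12, -0.08 and 0.20 in the 3 comparisons, and its 11 non-ATPase genes 0.07, -0.12 and 0.07. Psmc3 had the lowest adjusted p of the ATPase genes in Treg minus GFPKO, at 0.11, with a difference of 0.35 ± 0.13 (SE). Psmd1 stood apart in direction from most of the 47 genes: it read 8.79, 8.84 and 8.68 on TN, 8.86, 8.89, 8.79, 8.55 and 8.73 on Treg, and 9.38, 9.19 and 8.79 on GFPKO arrays. GFPKO arrays 1 and 2 were the highest of the 11 and GFPKO array 3 lay among the rest. Its GFPKO minus TN difference of 0.35 had an adjusted p of 0.27 and was called without GFPKO array 3 and with array weights. Psmd14, the deubiquitinase that strips ubiquitin from substrates, read 10.32, 10.31 and 10.35 on TN, 10.52, 10.44, 10.51, 10.17 and 10.20 on Treg, and 10.97, 10.52 and 10.08 on GFPKO arrays. The GFPKO arrays spanned the values of all other arrays, and no difference of Psmd14 passed the test (GFPKO minus TN 0.20 ± 0.19, SE, adjusted p 0.71).

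The 7 assembly chaperone genes held 2 of the 4 genes called. Of their differences 7 lay below 0 for GFPKO minus TN (median -0.18), where 43.2% of all genes lay above 0. For Treg minus GFPKO 7 lay above 0 (median 0.38), where 63.7% of all genes did. Treg minus TN gave 4 above and 3 below (median 0.06), where 55.8% of all genes lay above 0. Psmg1 read 9.61, 9.46 and 9.42 on TN arrays, 9.34, 9.34, 9.51, 9.37 and 9.60 on Treg arrays, and 8.57, 8.97 and 9.10 on GFPKO arrays. All GFPKO arrays were below all other arrays, and TN and Treg arrays overlapped. Means were 9.50 ± 0.10 (SD, n = 3), 9.43 ± 0.12 (n = 5) and 8.88 ± 0.28 (n = 3). GFPKO minus TN was -0.62 ± 0.15 (SE), 1.53-fold lower, with an adjusted p of 0.022 in limma, and Treg minus GFPKO was 0.55 ± 0.13, 1.47-fold higher, with an adjusted p of 0.017. Treg minus TN was -0.06. The GFPKO minus TN call was lost without TN array 1 (adjusted p 0.12), TN array 2 (0.067) or GFPKO array 1 (0.070), in a fit of those groups alone (0.11), with the actin covariate (0.30) and with GFPKO array 3 as the only GFPKO array (0.27). The Treg minus GFPKO call was lost in 4 of 20 alternative settings, including without GFPKO array 1 (0.089), with the actin covariate (0.16) and with GFPKO array 3 alone (0.39).

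Psmg2, the partner of Psmg1, read 9.21, 8.69 and 8.58 on TN arrays, 8.66, 8.48, 8.80, 8.16 and 8.58 on Treg arrays, and 8.26, 8.08 and 8.11 on GFPKO arrays. GFPKO arrays lay below all TN arrays and overlapped the lowest Treg array, and TN array 1 was the highest of the 11. GFPKO minus TN was -0.68 ± 0.18 (SE), 1.60-fold lower, with an adjusted p of 0.043, and Treg minus GFPKO was 0.38 with an adjusted p of 0.17. A further bright probe set of Psmg2 gave -0.55 ± 0.15 for GFPKO minus TN and was not called (adjusted p 0.063 in the fit of all probe sets, where the probe set used here had 0.060). The call was lost in 11 of 20 alternative settings, including without TN array 1 (-0.49, adjusted p 0.23), TN array 2 (0.076), Treg array 1, 2 or 5 (0.053, 0.065 and 0.056), GFPKO array 2 (0.14) or GFPKO array 3 (0.059). Psmg3 and Psmg4 form the other pair of alpha ring chaperones. Psmg3 had differences of 0.31, -0.18 and 0.50, with adjusted p-values of 0.32, 0.73 and 0.078. Those of Psmg4 were 0.06, -0.27 and 0.33, with adjusted p-values of 0.88, 0.38 and 0.14. Psmd5, Psmd9 and Psmd10 assist assembly of the 19S base, and none of them was called.

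**Figure D2:**
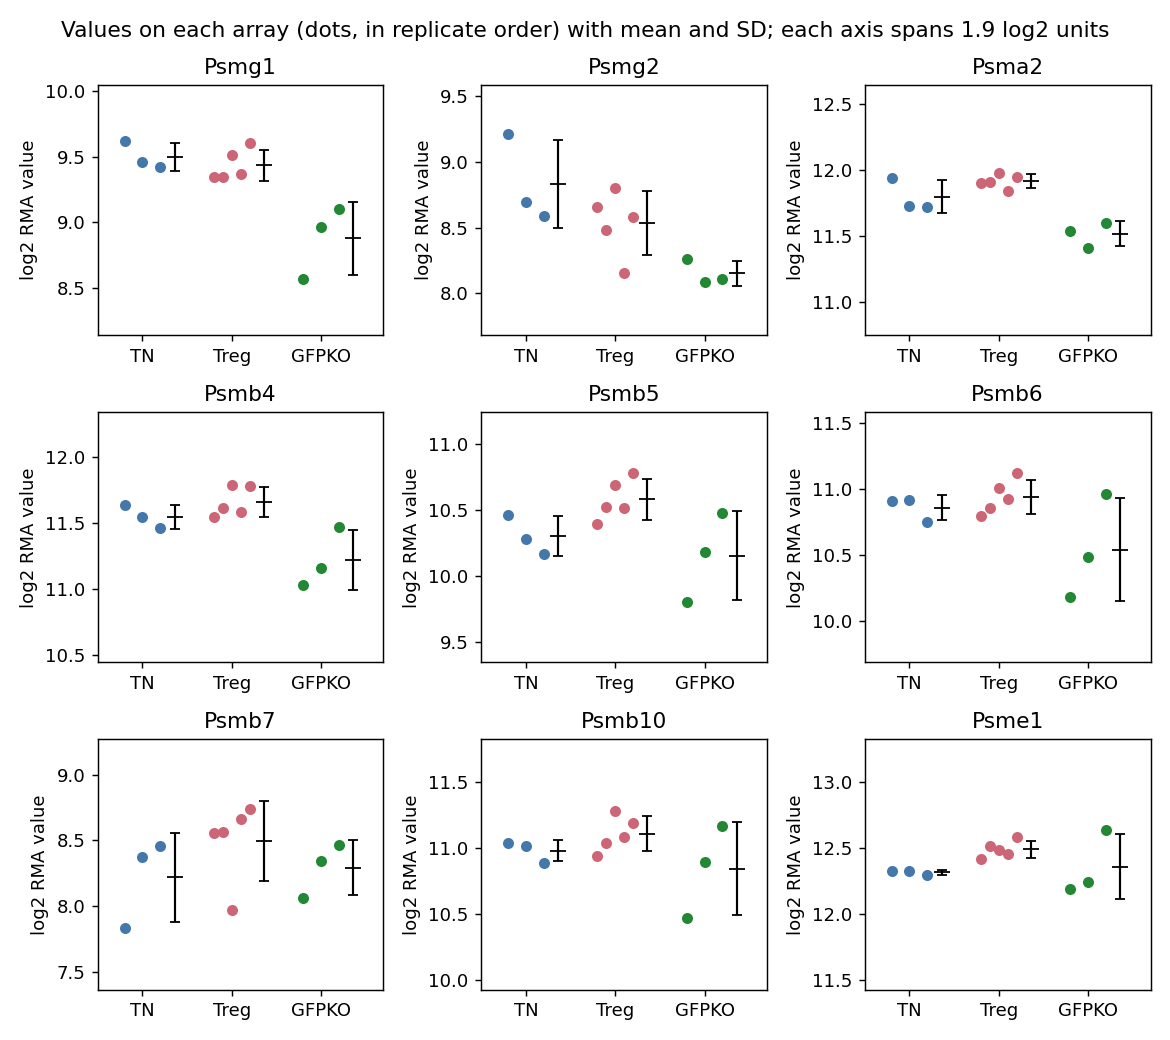
Log2 values on each array (dots, in replicate order within a group) with the group mean and SD (bars at the right of each group) for the 4 genes called in any comparison and for Psmb5, Psmb6, Psmb7, Psmb10 and Psme1; each axis spans 1.9 log2 units. For Psmg1 and Psma2 all 3 GFPKO arrays lie below all other arrays, whereas for Psmb5, Psmb6 and Psmb10 GFPKO array 3 lies among the other groups.

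Of the activators and the inhibitor, 4 genes were measured and none was called, with medians of 0.05, -0.10 and 0.20. Psme1, a subunit of the interferon-inducible activator ring, read 12.33, 12.32 and 12.30 on TN, 12.41, 12.52, 12.49, 12.45 and 12.58 on Treg, and 12.19, 12.24 and 12.64 on GFPKO arrays. The TN values lay within a narrow band below all Treg values, and GFPKO array 3 was the highest of the 11. Its differences were 0.18, 0.04 and 0.13, with adjusted p-values of 0.49, 0.94 and 0.56. Psme4, an ATP-independent activator, read 8.14, 8.09 and 8.00 on TN, 8.06, 7.83, 7.90, 7.48 and 7.50 on Treg, and 8.67, 8.13 and 7.79 on GFPKO arrays. GFPKO array 1 was the highest of the 11 and the groups overlapped. Treg minus GFPKO was -0.44 with an adjusted p of 0.16, which became a call without GFPKO array 3, with array weights and with the mean of its probe sets. In that comparison 3 of the other probe sets of Psme4 were called in the fit of all probe sets, at -0.58, -0.95 and -0.93. The probe set at -0.58 had a mean of 2.61 over all arrays, under background. Psme3, a subunit of the nuclear activator ring, and Psmf1, the inhibitor, had GFPKO minus TN differences of -0.29 and -0.23, neither of them called.

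The promoters of 3 of the 4 called genes are shown because some of the listed regulators of proteasome genes act through short promoter elements. Each is the stretch of 250 bases before the annotated start of the gene in RefSeq on GRCm38.p6, read 5′ to 3′ on the strand of the gene, and capitals mark matches to the motifs named after them.
Psma2, chr13:14612992-14613241, plus strand: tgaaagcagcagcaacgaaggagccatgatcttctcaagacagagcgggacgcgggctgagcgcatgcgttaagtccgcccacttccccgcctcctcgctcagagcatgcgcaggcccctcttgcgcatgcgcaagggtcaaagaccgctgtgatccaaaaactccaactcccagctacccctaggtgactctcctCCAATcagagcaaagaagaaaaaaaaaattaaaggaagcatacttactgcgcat
Psmb4, chr3:94886959-94887208, minus strand: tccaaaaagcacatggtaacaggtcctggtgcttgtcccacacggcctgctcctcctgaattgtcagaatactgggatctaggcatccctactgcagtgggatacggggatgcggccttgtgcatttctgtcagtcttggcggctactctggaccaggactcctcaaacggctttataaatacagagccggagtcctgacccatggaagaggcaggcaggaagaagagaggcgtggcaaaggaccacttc
Psmg1, chr16:95990961-95991210, minus strand: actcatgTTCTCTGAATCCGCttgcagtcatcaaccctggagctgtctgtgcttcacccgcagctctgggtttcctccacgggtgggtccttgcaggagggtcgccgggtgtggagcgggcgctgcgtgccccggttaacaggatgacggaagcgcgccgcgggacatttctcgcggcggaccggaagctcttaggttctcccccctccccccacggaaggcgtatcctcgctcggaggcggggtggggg

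The motifs searched on both strands were TGANNNNGC, the core of the antioxidant response element bound by Nfe2l1 and Nfe2l2, CCAAT, the box bound by the Nfya, Nfyb and Nfyc complex, and TTCNNNGAA, the element bound by STAT factors. The Psma2 stretch held CCAAT from 54 to 50 bases before the start and had a GC content of 54.0%. In the Psmb4 stretch, of 54.4% GC, none of the 3 motifs was found. The Psmg1 stretch, of 66.0% GC, held TGANNNNGC from 238 to 230 and TTCNNNGAA from 243 to 235 bases before the start, which overlap. TGANNNNGC was found in stretches of 16 of the 39 genes of the set that had one, or 41.0%, against 38.7% of 27025 genes. CCAAT was found for 15 of 39, or 38.5%, against 37.5%, and TTCNNNGAA for 1 of 39, or 2.56%, against 8.13%. The matches describe these letters and do not show that a factor binds there.

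Of 13 regulators of proteasome genes 11 were measured, and 1 was called in Treg minus TN, none in GFPKO minus TN and 2 in Treg minus GFPKO, all of these lower. Nfe2l2, which activates proteasome genes under oxidative stress, read 8.94, 8.94 and 8.93 on TN, 7.79, 7.44, 7.35, 7.40 and 7.41 on Treg, and 8.83, 8.74 and 8.39 on GFPKO arrays. All arrays labelled Treg lay below all other arrays. Treg minus TN was -1.46 ± 0.14 (SE), 2.75-fold lower, with an adjusted p of 2e-06, Treg minus GFPKO was -1.18 with an adjusted p of 4.9e-05, and GFPKO minus TN was -0.28 with an adjusted p of 0.40. The 47 proteasome genes had no call in that Treg minus TN comparison. Nfe2l1, which activates the same genes when proteasome activity falls short, had differences of 0.16, 0.05 and 0.11 and no call. Bach2, a repressor that binds with small Maf proteins, had a Treg minus GFPKO difference of -0.67 with an adjusted p of 0.029. That call was lost in 10 of 20 alternative settings, including leaving out Treg array 2, 3, 4 or 5, GFPKO array 1 or GFPKO array 2.

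A list of genes whose products bind the proteasome or help its assembly held 12 symbols, of which 8 were measured. Shfm1 and AI314180, not found, are older symbols of Sem1 and Ecpas, which were measured. No gene of the list was called in any comparison. Pomp, which chaperones the beta ring, came nearest, with differences of 0.27, -0.12 and 0.38 and adjusted p-values of 0.21, 0.76 and 0.053. Of 14 genes of ubiquitin and substrate delivery 7 were measured. Rad23b, which carries ubiquitinated substrates to the proteasome, was the gene called among them. It read 9.43, 9.37 and 9.29 on TN, 9.43, 9.33, 9.58, 9.40 and 9.33 on Treg, and 8.81, 8.98 and 8.86 on GFPKO arrays. All GFPKO arrays lay below all others. GFPKO minus TN was -0.48 with an adjusted p of 0.031, and Treg minus GFPKO was 0.53 with an adjusted p of 0.0061. The first of these calls was lost in 10 of 20 alternative settings, including without any one TN array, Treg array 2 or GFPKO array 1, and the second in 2. Over all probe sets of Rad23b the mean differences were -0.18 and 0.07, neither of them called.

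The level of the proteasome genes also differed between arrays of a group. The median deviation of the 47 genes from their means over all arrays was 0.09, -0.01 and -0.08 on TN arrays, 0.00, 0.04, 0.14, 0.08 and 0.18 on Treg arrays, and -0.30, -0.10 and -0.04 on GFPKO arrays. GFPKO array 1 was the lowest and Treg array 5 the highest. GFPKO array 1 gave the lowest of the 11 values for 28 of the 47 genes, while 45.8% of all genes with a mean of at least 8 were also lowest there. Treg array 5 gave the highest value for 16 of the 47, against 21.3% of those bright genes. On GFPKO array 1 the median deviation of the bright genes was -0.21. The median SD within a group over the 47 genes was 0.11 for TN, 0.13 for Treg and 0.24 for GFPKO, and over the bright genes 0.11, 0.14 and 0.28.

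**Figure D3:**
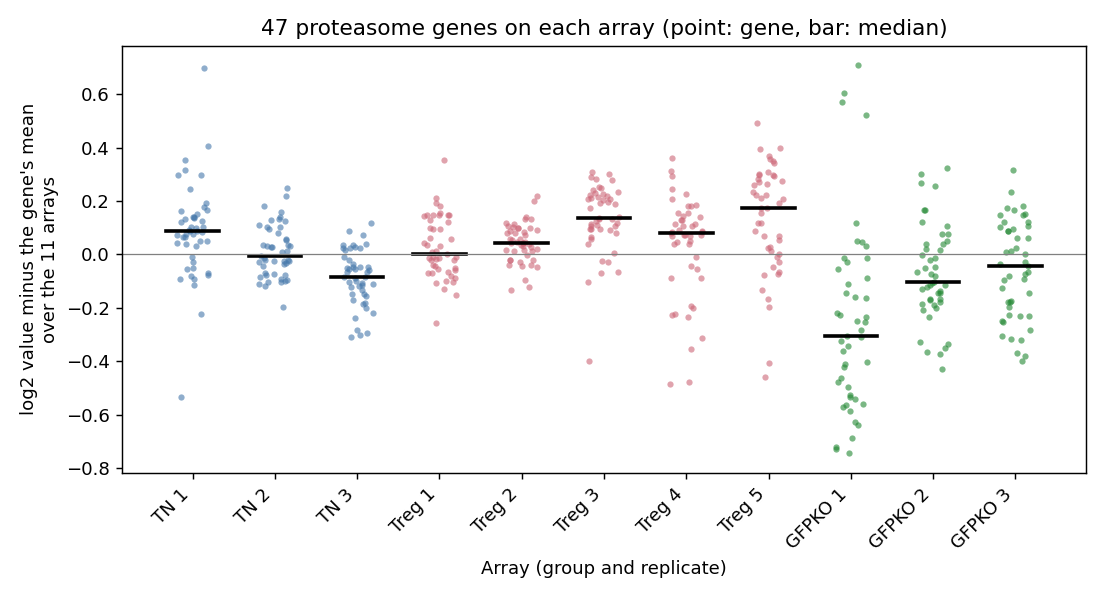
Deviation of each of the 47 proteasome genes (points) from its mean over the 11 arrays, by array, with the median as a bar; points are spread sideways for display. The median bar is lowest on GFPKO array 1, at -0.30, and highest on Treg array 5, at 0.18.

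The actin control compares probe sets at the 3′ and 5′ ends of the actin transcript, and a larger log2 gap is read as less complete RNA or labelling. The gap was 0.38, 0.52 and 0.53 on TN arrays, 0.61, 0.52, 0.44, 0.58 and 0.49 on Treg arrays, and 0.77, 0.83 and 0.45 on GFPKO arrays. GFPKO arrays 1 and 2 had the largest gaps, and GFPKO array 3 lay within the range of the other groups. With the gap as a covariate none of the 47 genes was called in any comparison, and over all genes the calls in Treg minus GFPKO went from 1252 higher and 464 lower to 584 and 227. With GFPKO array 3 as the only GFPKO array, again none was called, and the median of the 47 genes was -0.033 for GFPKO minus TN and 0.11 against Treg arrays. Without GFPKO array 1 these medians were -0.042 and 0.12, and the calls were Psmg2, lower than on TN arrays, and none against Treg arrays, and without GFPKO array 3 there were 12 genes higher and 2 lower in Treg minus GFPKO. Over all 18193 genes that setting called 2414 higher and 1007 lower, against 1252 and 464 with all arrays, so the counts grew for all genes as well as for the 47.

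**Figure D4:**
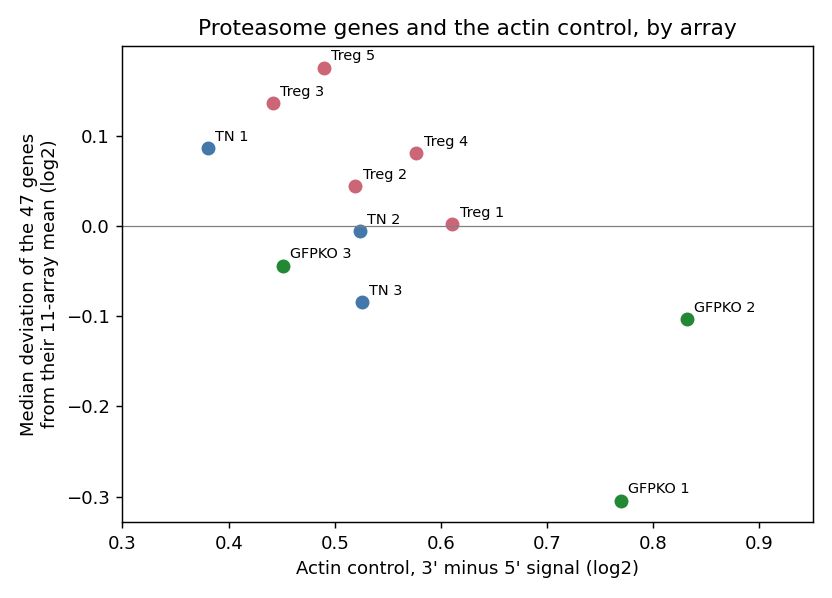
Median deviation of the 47 proteasome genes from their means over the 11 arrays (vertical, log2) against the actin 3′ minus 5′ gap (horizontal, log2), 1 point per array, coloured by group. GFPKO arrays 1 and 2 lie at the right, with gaps of 0.77 and 0.83 and medians of -0.30 and -0.10, and GFPKO array 3 lies at a gap of 0.45 and a median of -0.04.

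Probe sets of the same gene did not always give the same difference. The 47 genes had 100 single-symbol probe sets: 21 genes had 1 and 26 had more. In a fit of all single-symbol probe sets, none of the other 53 probe sets was called in GFPKO minus TN. In Treg minus TN 2 of them were called, from Psma3 and Psmd9, both lower. In Treg minus GFPKO 6 were called, from 4 genes. Of these the Psma7 probe set was higher (0.37). Those of Psma3 (-0.63), Psmd9 (-0.62) and Psme4 (given above) were lower. The share of all probe sets called was not computed. The dimmer Psma3 probe set, with a mean of 4.96, gave -0.88 for Treg minus TN (adjusted p 0.0027), while the brighter one used here, with a mean of 11.30, gave 0.05. The Psmd9 probe set that was called had a mean of 3.26, under background. The 2 bright probe sets of Psmb3, a structural beta subunit, gave 0.01 and -0.47 for GFPKO minus TN, neither of them called. Values for genes with several probe sets thus rest on the choice of the brightest one.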

How the data were processed

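The authors deposited log2 values made with RMA, per the submitters' processing notes; its version is not given in the sources used here, and the log2 scale was read from the values (1.54 to 14.65, array medians 4.07 to 4.16). RMA brings all arrays to the same distribution of values and summarises the probes of a set, so a shift common to all genes of an array is removed. Of 45101 probe sets, 34945 had 1 symbol in the platform's gene table and gave 18193 genes; 64 controls, 932 probe sets with several symbols and 9160 with none were left out. All 47 genes matched RefSeq by Entrez ID. The number of arrays limits the precision, and no pair of arrays held identical values.

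limma 3.58.1 in R 4.3.3 fitted 1 mean per group to all 11 arrays, with empirical Bayes moderation. The moderated test was two-sided, with Benjamini-Hochberg adjustment over all genes in each contrast; called means an adjusted p under 0.05. Errors are SD for group means and SE for differences. The code was tested on simulated data. The alternatives were fits of only 2 groups, a replicate block, a mean of at least 5, the mean of all probe sets, arrays centred on genes with a mean of at least 8, array weights, a trended robust prior, an actin covariate and each array left out. GFPKO array 3 as the only GFPKO array was added after seeing the data.

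Named with values were, per contrast, up to 8 called genes of the set in each direction; Psmb5, Psmb6, Psmb7, Psmb10 and Psme1; genes at or under background in all groups; and called genes of the pathway lists. Others (such as Psma6, Psma7, Psmd1, Psmd14 and Psme4) were chosen after their values were seen. The genes and lists were chosen with earlier results of these data known. Marker lists of erythroid cells and platelets (5 genes measured) had no call. Replicate numbers were not used as pairs in the main fit. Same-numbered arrays of different groups deviated together with correlations from -0.22 to 0.51. For replicate 1 these were 0.21 (TN and Treg), 0.16 (TN and GFPKO) and 0.51 (Treg and GFPKO). Differently numbered arrays were not compared, so these correlations cannot decide whether samples were paired.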

Additional observations from a re-analysis of the deposited data

Results flagged for a closer look

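Psmb7 on Treg array 3 read 7.97, far from the other 4 arrays labelled Treg, which read 8.56 to 8.74. It was the 1 gene of the 47 in which an array of that group stood so far from the rest (Dixon's criterion at 95%), and chance alone marks about 1 in 20 groups. Without that array the Treg minus TN difference of Psmb7 was 0.41 in place of 0.28, and it was not called in either case.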

How the results depend on the processing

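Treg minus TN gave no higher call among the 47 genes in any of 20 alternatives, and a median of 0.05 to 0.13; the mean of all probe sets gave 1 lower call (Psma3). GFPKO minus TN lower calls were 0 in the 2-group fit, with the actin covariate and with GFPKO array 3 alone, 1 with the mean of all probe sets and 7 with array weights, which gave 1 higher call (Psmd1). Leaving out 1 array gave 0 to 2 lower and 0 to 1 higher, and medians of -0.19 to -0.042 (-0.033 with GFPKO array 3 alone). Treg minus GFPKO higher calls were 1 in the 2-group fit and with centred arrays, 5 with a mean of at least 5, 6 with a trended robust prior, 19 with array weights, and 0 with the actin covariate, GFPKO array 3 alone and the replicate block. Lower calls were 1 with the mean of all probe sets (Psme4) and 3 with array weights. Leaving out 1 array gave 0 to 12 higher and 0 to 2 lower, and medians of 0.12 to 0.29 (0.11 with GFPKO array 3 alone). With the replicate block the 2 lower calls of GFPKO minus TN remained, and the Treg minus GFPKO calls of Psmg1 (0.52, adjusted p 0.089), Psma2 (0.41, adjusted p 0.12) and Psmb4 (0.43, adjusted p 0.14) were lost. Under some settings the counts over all genes moved too: Treg minus GFPKO called 1252 higher and 464 lower as reported, 4424 and 2332 with array weights, 752 and 297 with the replicate block, 584 and 227 with the actin covariate and 416 and 219 with GFPKO array 3 alone, but 1248 and 513 with the trended robust prior. GFPKO minus TN called 480 and 549 as reported, 2118 and 2933 with array weights and 341 and 229 with the actin covariate. Signs reversed as follows, none of these values called. For GFPKO minus TN the actin covariate gave Bach2 -0.15, Psmb10 0.12, Psmb5 0.14 and Psmb7 -0.022, GFPKO array 3 alone gave Bach2 -0.28, Psmb10 0.19, Psmb5 0.17 and Psmb6 0.10, and array weights gave Psme1 -0.058. For Treg minus GFPKO, GFPKO array 3 alone gave Psmb10 -0.061, Psmb11 -0.023, Psmb6 -0.020 and Psme1 -0.15, the actin covariate gave Psme1 -0.015, and centred arrays gave Psmb11 -0.024. The replicate block gave Psmb11 -0.082 there and Psma8 0.03 for Treg minus TN, where the mean of all probe sets gave Rad23b -0.11. Leaving out 1 array gave Bach2 -0.065 to 0.37, Psmb10 -0.30 to 0.050, Psmb5 -0.31 to 0.026, Psmb7 -0.12 to 0.19 and Psme1 -0.10 to 0.12 for GFPKO minus TN, Psma8 -0.13 to 0.052 for Treg minus TN and Psmb11 -0.067 to 0.088 for Treg minus GFPKO. Nfe2l2 kept both calls in all 20 alternatives, and none of the calls of the 47 genes was kept in all of them. The cause was not tested. Values near the background of 3.88 (Psma8, Psmb11) have little signal to compare.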
